A study of Mus musculus with 57 samples.

Results

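Gene expression in brown adipose tissue (BAT) was compared with that in inguinal white adipose tissue (WAT) of male mice homozygous for the Mfn2 R707W knock-in (KI) after 6 months of a high-fat diet (HFD). The members were the 22 samples of HFD-fed KI mice, 6 of BAT and 16 of inguinal WAT, out of 57 samples in the series. They were deposited as 14 of the series' 41 columns of counts, 6 for BAT from 1 library per mouse and 8 for inguinal WAT, where each mouse had 2 technical libraries and 1 column. All KI mice carried the change on both alleles of Mfn2 in every tissue, on a C57BL/6J background and descended from 1 founder. The HFD gave 45% of its energy as fat. It was eaten from the age of 5 weeks per the study's methods, whereas its figure legends give a later starting age. Wild-type (WT) mice on the same diet, with 6 BAT and 8 inguinal columns, served to ask whether the depot difference itself differed with genotype. Inguinal WAT of 6 KI mice fed chow, from a further table, took the place of that of HFD-fed mice in an alternative fit.

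BAT burns fatty acids to make heat. Its adipocytes are packed with mitochondria, and Ucp1, the uncoupling protein of their inner membrane, lets protons return to the matrix without making ATP. Inguinal WAT, a subcutaneous depot of the mouse, stores triglyceride and secretes hormones such as leptin, and it can form beige adipocytes with Ucp1 in the cold. Mfn2 and Mfn1, the mitofusins, fuse the outer membranes of neighbouring mitochondria. The knock-in changes a residue of the Mfn2 protein and the count of its mRNA does not check the genotype.

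The BAT columns held 8414754 to 10522554 counts and the inguinal columns 17572752 to 24498516, and the depots came in separate tables, so that depot, table and depth cannot be told apart. Levels are in CPM, counts scaled to a common library total with TMM factors, given as the lowest, median and highest mouse of a depot. Differences are the log2 of BAT over inguinal WAT with the standard error (SE) of edgeR's quasi-likelihood fit, and a gene was called at a Benjamini-Hochberg adjusted p below 0.01. Inguinal mouse 2 had a summed level of B cell markers of 1426 CPM against 73.6 to 143 CPM in the other 7, and of T cell markers of 723 CPM against 13.0 to 34.6 CPM. Skeletal muscle markers summed to 5570.0 and 2827 CPM in inguinal mice 3 and 5 and to 1239.7 CPM in BAT mouse 6, against 110.0 to 394 CPM in the other inguinal and 80.9 to 289.6 CPM in the other BAT mice. Whether the depots came from the same animals is not given in the sources used here, and the test took them as independent. In bulk tissue, fewer cells of a type and less RNA per cell cannot be told apart.

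The labelled depots were checked against their defining markers. Ucp1 (chromosome 8, 83290352 to 83298452, GRCm38) was at 4493, 6822 and 8219 CPM in BAT and at 0.0761, 0.320 and 1.49 CPM in inguinal WAT. Every BAT mouse lay above every inguinal mouse, with a log2 difference of 13.63 ± 0.47 (adjusted p = 3.5e-13 in edgeR's test). Cidea, a lipid droplet protein of brown adipocytes, stood at 3841, 4427 and 5517 CPM in BAT against 10.4, 17.4 and 35.9 CPM in inguinal WAT (7.85 ± 0.28). Zic1, a transcription factor of the brown fat of the back, reached 4.29, 7.42 and 10.4 CPM in BAT and 0, 0.0183 and 0.228 CPM in inguinal WAT (7.04 ± 0.50, or 7.95 without inguinal mouse 3). Lep, which encodes leptin, went the other way, with 10.8, 31.6 and 48.5 CPM in BAT and 976, 1478 and 1776 CPM in inguinal WAT (−5.55 ± 0.28). For each of these 4 genes the depots did not overlap. The 2-sided exact permutation test over the 3003 divisions of the mice gave p = 0.000333, the smallest it can give. Without overlap the observed division is the most extreme in its direction, so this p restates the lack of overlap.

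**Figure D1:**
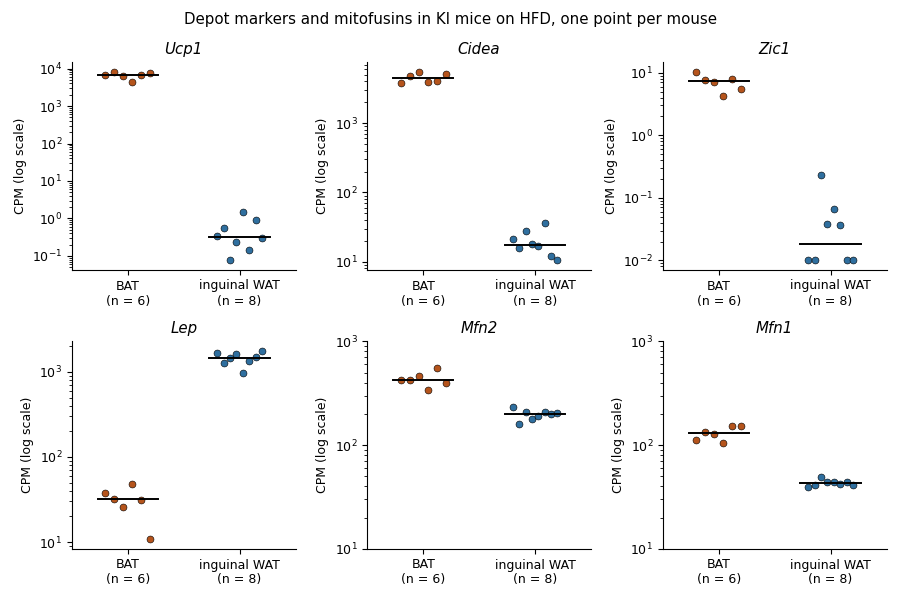
Level of depot markers and mitofusins in CPM (log axis), 1 point per KI mouse on HFD, BAT in brown (n = 6) and inguinal WAT in blue (n = 8), bars at the medians; inguinal mice with no Zic1 count are drawn at 0.01 CPM. Ucp1, Cidea and Zic1 were higher and Lep lower in every BAT mouse, and Mfn2 and Mfn1 were higher in every BAT mouse by a smaller amount.

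The depots differed over a large part of the transcriptome. Of 16069 genes tested, 9389 were called (58.4%), 4483 of them higher in BAT (27.9%) and 4906 lower (30.5%), so that a called gene is the ordinary case and each list below is to be read against these shares. The median over all genes was −0.10. With library size alone in place of TMM factors this median moved to −0.72 and the share of called genes that were higher in BAT fell from 47.7% to 19.8%, so the direction of small differences depends on the scaling. An adjusted p below 0.001 with a difference beyond 1.5 was met by 3124 genes (19.4%), 1444 higher (8.99%) and 1680 lower (10.5%). Beyond 5 on the log2 scale lay 74 called genes higher and 109 lower in BAT. In 42.9% of all genes the 6 BAT mice did not overlap the 8 inguinal mice, with BAT above in 20.5% and below in 22.4%.

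The genes described next had the 9 largest rises after Ucp1 among called genes without overlap, with a mean of at least 10 CPM in BAT and a symbol that is not that of a predicted gene. Dio2, the deiodinase that activates thyroid hormone, was at 105, 188 and 378 CPM in BAT against 0, 0.0183 and 0.132 CPM in inguinal WAT (12.10 ± 0.44, or 12.70 without inguinal mouse 5). Lgr6, a receptor for R-spondins, was at 131, 186 and 234 CPM against 0, 0.0758 and 0.223 CPM (10.82 ± 0.30). An R-spondin, Rspo4, had no count in any inguinal mouse and 8.57, 18.9 and 52.7 CPM in BAT, which made it at least 227-fold higher when 3 counts per library are allowed in inguinal WAT. Lgr6 and Rspo4 were both chosen for a large rise in BAT without overlap, so their shared side is no separate result. Fabp3, a fatty acid binding protein of heart and muscle, reached 3807, 4888 and 6620.0 CPM against 0.565, 2.41 and 18.7 CPM (10.01 ± 0.88). Its highest inguinal value was that of mouse 3, the library with the highest muscle marker sum, without which the difference was 10.74. Elovl3, which elongates very long chain fatty acids, rose by 10.39 ± 0.64 (9.74 without BAT mouse 5) and Slc27a2, an acyl-CoA synthetase that takes up fatty acids, by 9.49 ± 0.25. Kng2, a kininogen, rose by 9.11 ± 0.30 and Ptgds, a prostaglandin D synthase, by 8.84 ± 0.28, while Fam131c, with at most 2 counts in any inguinal mouse, was at least 137-fold higher in BAT.

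The 32 brown thermogenic genes lay almost all on the BAT side, with 31 higher, 1 lower and a median of 4.83. Ppargc1a, the coactivator of mitochondrial biogenesis, had medians of 131 CPM in BAT and 3.65 CPM in inguinal WAT (4.94). Ppara, a receptor that drives fatty acid oxidation, differed by 4.79 and Esrra, an orphan receptor that drives respiratory genes, by 3.37 ± 0.13. Prdm16 and Ebf2, which specify brown and beige adipocytes, had smaller differences of 0.89 and 0.78. Otop1, a proton channel, was higher by 6.14 and Kcnk3, a potassium channel, by 4.87. The single member that fell was Hspb7, a small heat shock protein of heart and muscle. It was at 0.589, 1.82 and 6.08 CPM in BAT and 22.0, 44.4 and 57.0 CPM in inguinal WAT (−4.19 ± 0.38), and its highest BAT value was that of mouse 6, the BAT library with the highest muscle marker sum. Without inguinal mice 2, 3 and 5 and BAT mouse 6, the list had 31 members higher and 1 lower.

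The other uncoupling proteins and the ADP/ATP carriers, 8 genes with Ucp1, had 4 higher and 2 lower. Ucp3, a relative found mainly in muscle, was at 81.0, 132 and 156 CPM in BAT and 34.6, 43.0 and 52.3 CPM in inguinal WAT (1.47 ± 0.15). Ucp2, which is widespread and abundant in immune cells, was lower in BAT (−0.78 ± 0.20) with overlapping depots, beside macrophage markers that were also lower there, and their part in this result was not tested. Slc25a4 and Slc25a5, ADP/ATP carriers of the inner membrane, were higher by 1.47 ± 0.11 and 2.04 ± 0.13. Per kilobase of gene model, the mean level of Ucp1 in BAT was 4078 CPM, that of Ucp3 39.1 CPM and that of Ucp2 23.0 CPM. In inguinal WAT the order was different, with Ucp2 at 39.4 CPM per kilobase, Ucp3 at 14.1 and Ucp1 at 0.308. The order of Ucp2 and Ucp3 in BAT rests on their gene model lengths of 6989 and 3135 bases. Before division by length, Ucp2 was above Ucp3 in BAT too. Its mean was 159 against 121 CPM, scaled over all KI and WT mice on HFD.

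The nuclear genes of the respiratory chain moved nearly as a block. Of 76 subunits, 75 were higher and 1 lower in BAT, with a median of 3.23, and for none of them did the depots overlap. Their summed level was 81469.9, 107207 and 124446 CPM in BAT and 9835, 10641 and 11864 CPM in inguinal WAT. The exception, Atp5g1, encodes the c subunit of ATP synthase, which is made from 3 genes. It was at 15.1, 21.2 and 27.7 CPM in BAT against 37.5, 40.3 and 45.7 CPM (−0.96 ± 0.11), while its partners Atp5g2 and Atp5g3 rose by 1.43 and 1.83. Reads shared among these copies and their pseudogenes could have been split by the authors' counting, so these values are uncertain.

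Of 5 pairs of cytochrome c oxidase isoforms, 2 changed order between the depots on the scale per kilobase. Cox8b and Cox7a1 are forms of heart and muscle, and Cox8a and Cox7a2 their widespread partners. Cox8b was at 2821, 4320.0 and 6252 CPM in BAT and 7.24, 13.3 and 19.4 CPM in inguinal WAT (8.36 ± 0.32), whereas Cox8a differed by 2.22. Cox7a1 differed by 8.22 and Cox7a2 by 3.58. Per kilobase, Cox8b had a mean of 12509 CPM in BAT against 2971 CPM for Cox8a, and 38.1 against 637 CPM in inguinal WAT. The order of Cox7a1 and Cox7a2 turned in the same way, with 3336 and 1099 CPM per kilobase in BAT and 11.1 and 92.0 in inguinal WAT. Cox4i1, the widespread subunit 4, rose by 3.19, while for its partner Cox4i2 the difference of 0.39 was not called. Per kilobase the widespread form stayed above its partner in both depots for the other 3 pairs, with Cox4i1 at 3588 against 19.4 CPM in BAT and 394 against 14.8 CPM in inguinal WAT. Cox6a1 was at 5045 against 30.5 CPM for Cox6a2 in BAT and 496 against 21.3 CPM in inguinal WAT, and Cox6b1 at 2281 against 10.3 CPM for Cox6b2 and 234 against 1.42 CPM.

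Promoters of genes from this block are shown because the genes moved together. Each run holds the 250 bases before the start of the gene in RefSeq (GRCm38.p6), 5′ to 3′ on the gene's strand, and capitals mark matches to the 3 motifs searched on both strands. These were AAGGTCA, a site of the estrogen-related receptors such as Esrra, GCATGCG, the core of the NRF1 site, and CCGGAAG, the core of the site of ETS factors such as GABP. Atp5l, Atp5k and Ndufb6 were the respiratory genes with the largest rise that held AAGGTCA (Atp5l), GCATGCG (Atp5k) or CCGGAAG (Ndufb6), and Ucp1 is shown as the gene with the largest rise of all.
Ucp1, chr8:83290098-83290347, plus strand: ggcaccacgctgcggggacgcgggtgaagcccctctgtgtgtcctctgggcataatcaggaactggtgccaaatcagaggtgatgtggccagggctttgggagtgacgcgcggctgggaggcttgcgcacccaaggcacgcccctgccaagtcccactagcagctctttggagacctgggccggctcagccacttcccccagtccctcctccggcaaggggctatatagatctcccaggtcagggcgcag
Atp5l, chr9:44920743-44920992, minus strand: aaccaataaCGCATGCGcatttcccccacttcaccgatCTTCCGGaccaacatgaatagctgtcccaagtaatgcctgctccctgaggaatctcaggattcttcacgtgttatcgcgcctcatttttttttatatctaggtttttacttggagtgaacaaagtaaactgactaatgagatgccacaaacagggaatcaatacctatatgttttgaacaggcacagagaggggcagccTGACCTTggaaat
Atp5k, chr5:108434400-108434649, minus strand: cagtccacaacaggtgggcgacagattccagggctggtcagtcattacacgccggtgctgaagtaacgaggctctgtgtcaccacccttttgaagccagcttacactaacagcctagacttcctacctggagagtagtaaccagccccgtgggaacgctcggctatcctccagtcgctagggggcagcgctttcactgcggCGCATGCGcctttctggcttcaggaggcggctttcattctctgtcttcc
Ndufb6, chr4:40279422-40279671, minus strand: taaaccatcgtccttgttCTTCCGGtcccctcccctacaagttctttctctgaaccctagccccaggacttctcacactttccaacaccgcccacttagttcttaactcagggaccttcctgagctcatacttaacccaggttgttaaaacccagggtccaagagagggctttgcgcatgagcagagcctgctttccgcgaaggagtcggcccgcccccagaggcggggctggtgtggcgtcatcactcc

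Atp5l, a subunit of ATP synthase, rose by 2.78 in BAT, Atp5k, another, by 4.25 and Ndufb6, a subunit of complex I, by 4.12. Of the 64 respiratory genes with a promoter in the table, 8 held GCATGCG (12.5%), 11 held CCGGAAG (17.2%) and 5 held AAGGTCA (7.81%). Among the 11422 tested genes with a promoter these shares were 5.21%, 13.0% and 2.91%, and among all 27025 promoters 3.07%, 7.05% and 4.05%. GCATGCG overlaps its own reverse complement in Atp5l and Atp5k, and such a promoter was counted once. The genes with AAGGTCA rose by 1.83 (Atp5g3) to 2.78 (Atp5l), below the median of 3.23 for all 76 subunits. Those with GCATGCG rose by 1.43 (Atp5g2) to 4.25 (Atp5k), and those with CCGGAAG by 2.46 (Atp5h) to 4.12 (Ndufb6). Cox8b and Cox7a1, with the largest rises of the block, held no match. The 250 bases shown for Ucp1 held no match. These are matches of letters, given as a description.

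Mitochondrially encoded mRNAs were also higher in BAT. All 13 were called, from mt-Nd5 at 1.63 to mt-Co3 at 3.94 ± 0.21, with a median of 2.70, and the depots did not overlap for any of them. The most abundant, mt-Co1, had medians of 47311 CPM in BAT and 6182 CPM in inguinal WAT. All genes of the mitochondrial genome took 10.6, 11.2 and 12.8% of the counts in BAT and 2.15, 2.52 and 3.68% in inguinal WAT, where the highest value was that of mouse 2. Nuclear copies of mitochondrial sequence can share such reads, and the labels give the molecule as polyA RNA.

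**Figure D2:**
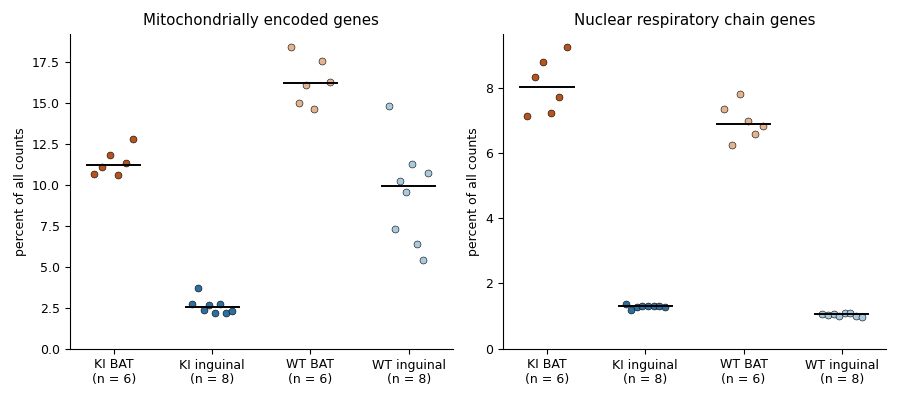
Percent of all counts on mitochondrially encoded genes (left) and on nuclear respiratory chain genes (right), 1 point per mouse on HFD, bars at the medians (n = 6 for BAT, n = 8 for inguinal WAT). In KI mice BAT lay above inguinal WAT in both, and in WT mice the inguinal share of mitochondrially encoded genes, 5.40 to 14.8%, reached the range of BAT, 14.6 to 18.4%.

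The enzymes that feed the chain rose with it. Of 27 enzymes of fatty acid β-oxidation, 26 were higher and 1 lower (median 3.03), and of 28 of the TCA cycle, 26 were higher and 1 lower (median 2.85). Acadvl, the very long chain acyl-CoA dehydrogenase, was at 4279.5, 4704 and 5220.0 CPM in BAT and 105, 124 and 148 CPM in inguinal WAT (5.24 ± 0.12). The exception was Cpt1a, the liver form of the enzyme that admits fatty acids to mitochondria. It was at 39.9, 48.4 and 65.3 CPM in BAT against 89.1, 101 and 113 CPM (−0.98 ± 0.11), whereas Cpt1b, the muscle form, rose by 4.95 with a BAT median of 9.41 CPM. Sucla2, a subunit of succinyl-CoA ligase, rose by 4.48 ± 0.12. Ogdhl, a relative of the oxoglutarate dehydrogenase subunit, was lower (−2.59 ± 0.46), with 0, 0.282 and 0.644 CPM in BAT and 1.13, 1.94 and 2.85 CPM in inguinal WAT.

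The list of mitochondrial fusion and fission genes, among them Mfn2, had 17 of 25 members higher and 1 lower, with a median of 0.92. It also held Immt, Chchd3, Chchd6 and Chchd10, genes of cristae and the intermembrane space. Each of these had a higher mean per kilobase in BAT, from 33.0 against 19.9 CPM for Chchd6 to 2328 against 178 CPM for Chchd10. Mfn2 (chromosome 4, 147873599 to 147904704) was at 341, 425 and 549 CPM in BAT and 159, 201 and 235 CPM in inguinal WAT, a difference of 1.13 ± 0.11. Mfn1 was at 105, 130.1 and 154 CPM against 39.4, 42.9 and 49.3 CPM, a difference of 1.60 ± 0.09. For neither did the depots overlap (exact permutation p = 0.000333). That p restates the lack of overlap, which 42.9% of all genes showed. Per kilobase Mfn2 was above Mfn1 in both depots, at means of 83.4 against 21.3 CPM in BAT and 38.1 against 7.04 CPM in inguinal WAT. Opa1, which fuses the inner membrane, rose by 1.66. Mtfp1, an inner membrane protein that promotes fission, had the largest difference of the list, 4.72 ± 0.18. For Dnm1l, the fission GTPase, the difference of −0.03 was not called. Inf2, a formin that acts at fission sites, was lower (−0.64 ± 0.13) with overlapping depots. With library size alone, 12 members were higher and 7 lower.

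**Figure D3:**
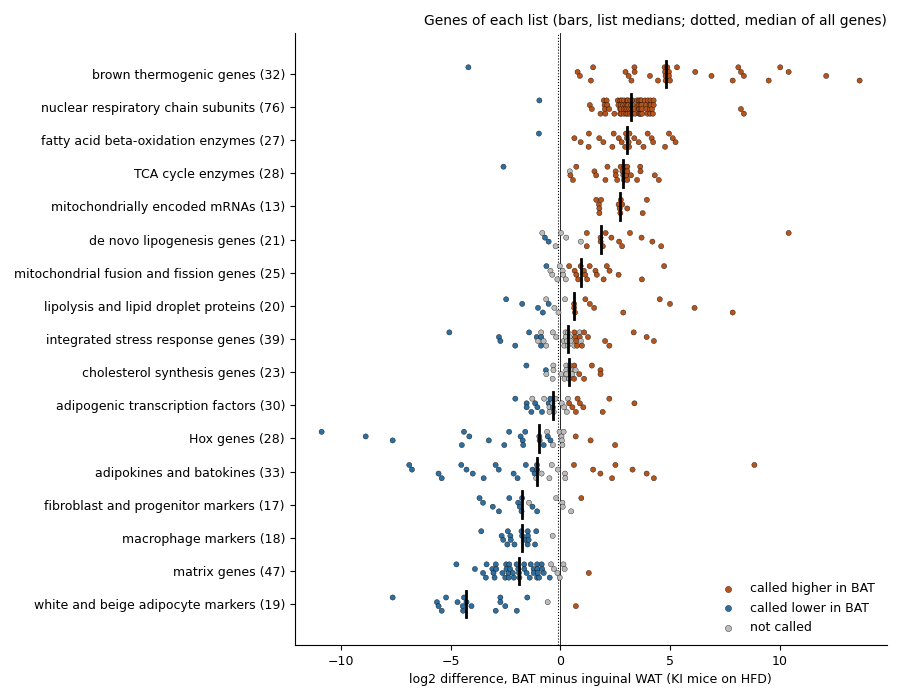
Log2 difference between BAT and inguinal WAT of KI mice on HFD for every tested gene of 17 lists (number tested in brackets), brown for genes called higher in BAT, blue for lower and grey for not called; thick bars mark list medians and the dotted line the median of all 16069 genes, −0.10. Thermogenic, respiratory, β-oxidation and TCA cycle genes lay on the right with 1 gene each called lower, and most white fat, matrix and macrophage genes on the left.

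On the inguinal side the genes described here were among the largest differences under the same limits, with a mean of at least 10 CPM in inguinal WAT. Genes of lower level were left out of this ranking, among them Elane, a protease of neutrophils, with no count in any BAT mouse and a median of 1.08 CPM in inguinal WAT. Hoxa10 had no count in any BAT mouse and 9.32, 12.8 and 16.2 CPM in inguinal WAT, at least 30.8-fold lower in BAT when 3 counts per library are allowed there. Alb, which encodes albumin, had 0, 0 and 0.269 CPM in BAT and 10.7, 39.4 and 90.7 CPM in inguinal WAT, at least 104-fold lower. Cacna1e, a voltage-gated calcium channel, was at least 122-fold lower, Prr16 at least 53.1-fold, Oxtr, the oxytocin receptor, at least 41.6-fold, and Slc5a7, a choline transporter, at least 30.1-fold. Bmp3, a secreted factor of the BMP family, was at 0.156, 0.766 and 2.15 CPM in BAT and 93.6, 123 and 161 CPM in inguinal WAT (−6.88 ± 0.33). Sfrp5, a secreted inhibitor of Wnt signalling, was at 2.18, 2.52 and 7.19 CPM against 283, 392 and 548 CPM (−6.76 ± 0.30).

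Of 19 white and beige adipocyte markers tested, 17 were lower in BAT, 1 was higher and 1 was not called. Their median was −4.28, or −3.67 with the 3 genes at the counting floor set to their bounds. The gene that rose was Pparg, the regulator of all adipocytes (0.71 ± 0.13), and with library size alone its difference was 0.10 and not called. Nnat, an imprinted gene, had medians of 29.3 CPM in BAT and 1561 CPM in inguinal WAT (−5.62), and Mest, another, of 16.0 and 368 CPM (−4.45). Among 33 adipokines and batokines, 17 were lower and 9 higher in BAT. Adipoq, which encodes adiponectin, was at 556, 610.1 and 1026 CPM in BAT and 1235, 1407 and 1834 CPM in inguinal WAT (−1.06 ± 0.15). Cfd, which encodes adipsin, differed by −2.95, Retn, resistin, by −4.28 and Agt, angiotensinogen, by −5.41 ± 0.36. Higher in BAT were Gdf15, a stress hormone (3.93), Angptl8, an inhibitor of lipoprotein lipase (3.29), and Nrg4, a secreted factor of brown fat (0.62), with overlapping depots for Gdf15 and Nrg4.

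Genes of fat synthesis and storage were divided. Of 21 de novo lipogenesis genes, 14 were higher and 2 lower in BAT (median 1.83). Fasn, the fatty acid synthase, had medians of 4279 CPM in BAT and 384 CPM in inguinal WAT (3.70), and Acly, which makes cytosolic acetyl-CoA, rose by 2.06. Elovl1, an elongase of saturated chains, was lower (−0.70 ± 0.09). For Scd1, a desaturase, the difference of −0.82 was not called, with medians of 3779 CPM in BAT and 14058 CPM in inguinal WAT. BAT mouse 5 stood apart, with a list sum of 46485 CPM against 9156 to 20296 CPM in the other 5, and without BAT mice 5 and 6 the list held 14 genes higher and 3 lower. When inguinal WAT of chow-fed KI mice took the place of that of HFD-fed mice, 3 genes were higher and 4 lower and the median was −0.29, in a comparison where diet and table also differ. Of 20 lipolysis and lipid droplet genes, 11 were higher and 5 lower. Plin5, the perilipin that links droplets to mitochondria, rose by 4.99, and Plin4, a perilipin of white adipocytes, was at 357, 501 and 662 CPM in BAT and 2124, 2806 and 3506 CPM in inguinal WAT (−2.47 ± 0.16).

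Of 31 adrenergic and cAMP signalling genes, 10 were higher and 9 lower in BAT, with a median of −0.11. Adrb1, the β1 receptor, was at 23.7, 38.5 and 55.4 CPM in BAT against 5.24, 6.46 and 9.92 CPM (2.44 ± 0.19). Adcy5, an adenylyl cyclase, was at 3.54, 6.63 and 7.62 CPM against 79.7, 101 and 128 CPM (−4.10 ± 0.17). Adrb1 and Adcy5 are named as the called genes with the largest rise and the largest fall of the list. For each of them the depots did not overlap. Of the 12 creatine and calcium cycling genes, 5 were higher and 3 lower. Ckb, a creatine kinase, was at 116, 247 and 306 CPM in BAT against 28.6, 36.6 and 48.6 CPM (2.63 ± 0.19). Atp2a3, a calcium pump of the endoplasmic reticulum, was at 30.7, 43.2 and 51.3 CPM in BAT against 166, 189 and 256 CPM (−2.20 ± 0.13), the highest inguinal value being that of mouse 2.

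The integrated stress response (ISR) slows translation and turns on genes through ATF4 and its relatives, and mitochondrial stress is among the signals that start it. Of 39 ISR genes tested, 13 were higher, 8 lower and 18 not called, with a median of 0.34, and with library size alone 6 were higher, 16 lower and the median was −0.29. Ddit3, the transcription factor CHOP, was at 112, 392 and 592 CPM in BAT and 65.4, 88.6 and 96.3 CPM in inguinal WAT (2.04 ± 0.30), with no overlap. Atf4 and Atf5, transcription factors of the response, differed by 0.67 ± 0.12 and 0.72 ± 0.15 with overlapping depots, and with library size alone by 0.07 and 0.11, where neither was called. Atf3, another, was higher by 3.34, and Fgf21, a hormone of the response, ranged over 2.34, 21.0 and 154 CPM in BAT against 1.38, 2.29 and 3.08 CPM (4.26 ± 0.74), with overlapping depots. Without BAT mouse 5 the difference of Fgf21 was 3.18, and with the replicate block over mice 1 to 6 it was 3.35 and not called (adjusted p = 0.011 in edgeR's test). On the inguinal side lay the serine synthesis enzymes Phgdh (−2.06) and Psat1 (−2.73) and Stc2, a secreted glycoprotein, at 0.295, 1.52 and 3.50 CPM in BAT against 35.2, 58.1 and 74.4 CPM (−5.06 ± 0.36).

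BAT mouse 6 was the lowest BAT mouse for several of these genes. Its Gadd45a, a growth arrest gene, was at 13.2 CPM against 83.6 to 200.0 CPM in the other BAT mice, its Trib3, a feedback inhibitor of the response, at 28.4 CPM against 163 to 393 CPM, and its list sum at 3576 CPM against 5261 to 7395 CPM. Gadd45a differed by 0.88 ± 0.38 (adjusted p = 0.056 in edgeR's test) and Trib3 by 0.93 ± 0.41 (adjusted p = 0.058 in edgeR's test), and neither was called. Without BAT mouse 6 the differences were 1.11 and 1.17 and both were called. For Mthfd2, a mitochondrial folate enzyme, the difference of 0.34 ± 0.15 was not called, and it was −0.29 with library size alone. Without inguinal mice 2, 3 and 5 and BAT mouse 6 the list held 16 genes higher and 6 lower.

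Of 23 cholesterol synthesis genes, 7 were higher, 2 lower and 14 not called, with a median of 0.40, or −0.22 with library size alone. Hmgcs1, which makes HMG-CoA, was at 187, 248 and 304 CPM in BAT and 122, 130.0 and 188 CPM in inguinal WAT (0.86 ± 0.12), and with library size alone it differed by 0.25 and was not called. Insig1, which holds back the sterol-sensing transcription factors, rose by 1.83 ± 0.23, and Sc5d, a late enzyme of the pathway, was lower (−1.55 ± 0.17). Sqle, the squalene epoxidase, differed by 0.62 ± 0.16, a call not held with library size alone, where the difference was 0.01. For Mvk, the mevalonate kinase, the difference of −0.35 ± 0.12 was not called, whereas with library size alone it was −0.98 and with upper-quartile factors −0.50, and both were called. Of 19 circadian clock genes, 8 were higher and 4 lower, from Nfil3, a repressor of the clock's output, at 3.80 ± 0.24 to Per3 at −1.02 ± 0.16. Of 30 adipogenic transcription factors, 9 were higher and 10 lower, from Esrra at 3.37 ± 0.13 to Ebf1, a factor of early adipogenesis, at −2.05 ± 0.11.

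Hox genes, which keep a record of a tissue's place along the body, differed between the depots, in part by their number. Of 28 tested, 18 were lower in BAT, 3 higher and 7 not called (median −0.95, or −0.85 with 6 genes at the counting floor set to their bounds). The genes that rose in BAT carried the numbers 4 and 5, which are used toward the head. Hoxa4 was at 11.7, 16.9 and 24.2 CPM in BAT and 2.68, 3.15 and 3.80 CPM in inguinal WAT (2.49 ± 0.16), Hoxa5 was higher by 1.37 ± 0.13 and Hoxc4 by 0.70 ± 0.13. With library size alone Hoxc4 differed by 0.09 and was not called. All called genes numbered 6 or more were lower in BAT, as were Hoxb3, Hoxb5, Hoxd3 and Hoxd4 of lower number. Within the Hoxa cluster the difference ran from 1.37 for Hoxa5 through −0.96 for Hoxa7 to −4.49 ± 0.29 for Hoxa9. Hoxa6, at the counting floor in BAT, departed from this order with a fitted value of −2.33. In the Hoxc cluster it was −1.81 ± 0.20 for Hoxc6 and −4.39 ± 0.34 for Hoxc8 (−5.02 without BAT mouse 4), and Hoxc9 and Hoxc10 were at least 46.7-fold and 58.4-fold lower in BAT. The called genes of the Hoxb cluster ran from −0.45 for Hoxb3 to −2.56 ± 0.39 for Hoxb9, with Hoxb5 (−0.95) and Hoxb7 (−0.76) out of order. Those of the Hoxd cluster above the floor did not follow their number, with −1.72 for Hoxd4, −0.58 for Hoxd8 and −1.60 for Hoxd9. The call for Hoxb7 (−0.76 ± 0.23) was lost in 5 of the 14 fits that left out 1 mouse.

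**Figure D4:**
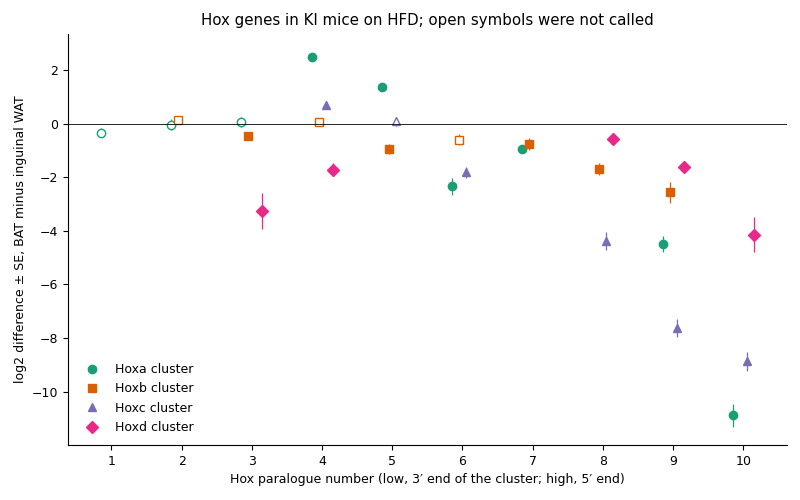
Log2 difference ± SE between BAT and inguinal WAT of KI mice on HFD (n = 6 and 8) for Hox genes by their number within the cluster, 1 symbol per cluster, open where the gene was not called. Called genes numbered 8 to 10 lay below 0 in every cluster; the fitted values of Hoxa6, Hoxa10, Hoxc9, Hoxc10, Hoxd3 and Hoxd10 rest on BAT counts at or under the floor of 3.

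Of 33 other patterning factors, 7 were higher and 15 lower. Zic4, which neighbours Zic1, was higher by 6.43, at a median of 3.23 CPM in BAT. On the inguinal side, Shox2 had medians of 0.817 CPM in BAT and 26.9 CPM in inguinal WAT (−4.05) and Tbx15 of 2.40 and 12.8 CPM (−2.20). Emx2 had at most 3 counts in any BAT mouse and was at least 4.54-fold lower. Of the 8 brown adipose position and lineage genes tested, 3 were higher and 3 lower. Zic1, Mpzl2 (4.48 ± 0.28) and Fbxo31 (1.55 ± 0.12) rose. En1, a factor of the trunk dermis and brown fat lineage, was lower, at 0, 0.702 and 1.07 CPM in BAT against 1.68, 3.13 and 3.77 CPM (−2.12 ± 0.37). Lhx8 was lower as well (−1.45 ± 0.32), as was Ebf3 (−0.34 ± 0.10), a call that was lost in 8 of the 14 fits without 1 mouse. Myf5, Pax3 and Pax7, which mark embryonic precursors, had a median of 0 CPM in both depots and were not tested.

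Matrix, progenitor and macrophage genes were mostly lower in BAT. Of 47 matrix genes, 40 were lower, 1 was higher and 6 were not called (median −1.87), and their summed level was 4344, 5329 and 5797 CPM in BAT and 12512, 15840.0 and 17751 CPM in inguinal WAT. Thbs2, a thrombospondin, was at 2.81, 5.31 and 9.23 CPM against 116, 159 and 193 CPM (−4.74 ± 0.21). Col12a1, a collagen that binds fibrils, was the gene that rose (1.29 ± 0.23), with overlapping depots, and with library size alone it was not called. Of 17 fibroblast and progenitor markers, 11 were lower and 1 was higher. Dpp4, a marker of interstitial progenitors, was lower (−3.68 ± 0.25) and Ly6a, which encodes Sca-1, higher (0.95 ± 0.13), a call not held with library size alone. Of 18 macrophage markers, 17 were lower (median −1.76), led by Cd163, a scavenger receptor, at 1.92, 3.25 and 5.36 CPM against 33.0, 40.6 and 63.4 CPM (−3.60 ± 0.22). Their summed level was 335, 491 and 635 CPM in BAT and 1001, 1360.2 and 2787 CPM in inguinal WAT, the highest being mouse 5. Without inguinal mice 2, 3 and 5 and BAT mouse 6, 39 matrix and 17 macrophage genes were lower.

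Of 15 endothelial markers, 6 were higher and 4 lower, from Egfl7 at 1.39 ± 0.14 to Lyve1, a marker of lymphatic vessels, at −2.43 ± 0.33. Of 12 mural cell markers, 5 were lower and 1 was higher, from Mcam at −2.70 ± 0.13 to Cspg4 at 0.82 ± 0.15, and with library size alone Cspg4 was not called. Of 13 nerve and Schwann cell markers, 4 were lower, among them Scn7a, a sodium channel (−2.75 ± 0.13), and 1 was higher, S100b, at 149, 194 and 224 CPM against 7.81, 11.4 and 14.5 CPM (4.08 ± 0.15). Of 5 red blood cell genes, 4 were higher, led by Hbb-bt, a β-globin whose reads may be shared with close copies, at 2.86 ± 0.35. Of 19 skeletal muscle markers, 2 were lower and 0 higher in edgeR's test (3 lower and 0 higher at an unadjusted p below 0.05, and 2 lower and 1 higher in DESeq2). Casq1, the calcium store protein of fast muscle, was at 0.135, 0.750 and 6.86 CPM in BAT and 2.87, 10.3 and 71.8 CPM in inguinal WAT (−3.42 ± 1.00), with its highest values in inguinal mice 3 and 5 and BAT mouse 6, and its call was lost in 9 of the 14 fits that left out 1 mouse, where it differed by −2.78 without inguinal mouse 3 and −4.35 without BAT mouse 6. Of 12 B cell markers 1 was called, Ighm, the heavy chain of IgM (−2.27 ± 0.46), and of 14 T cell markers 0 were called in edgeR's test, although 12 were lower at an unadjusted p below 0.05 and 3 in DESeq2. Inguinal mouse 2 was far above the rest in both lists. Of 4 epithelial and skin genes, Krt10 was higher (1.18 ± 0.26), a call not held with library size alone, and Trp63 was lower, and of 2 mesothelial genes 0 were called in edgeR's test, 0 at an unadjusted p below 0.05 and 0 in DESeq2.

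Most of this pattern was found in WT mice on the same diet as well, in separate animals. There, 9298 of 16271 genes were called (57.1%), 27.6% higher and 29.5% lower in BAT. Of the genes tested in both genotypes, 7466 were called in the same direction, 80.7% of those called in KI and 82.2% of those called in WT mice, and 17 were called in opposite directions. The median of the thermogenic list was 4.83 in KI and 4.44 in WT mice, of the nuclear respiratory subunits 3.23 and 3.18, and of the matrix genes −1.87 and −1.74. Ucp1 differed by 13.63 in KI and 13.30 in WT mice, with a difference between genotypes of 0.35 ± 0.54, and Mfn2 by 1.13 and 1.16, with a difference of −0.01 ± 0.14. Neither difference was called.

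Tested directly as an interaction across the 4 HFD groups, the depot difference differed between KI and WT mice for 485 of 17214 genes (2.82%). It was more to the BAT side in KI mice for 272 (1.58%) and more to the inguinal side for 213 (1.24%). Levels given for this comparison were scaled over all 4 groups and differ slightly from those above. Wwc1, a scaffold of the Hippo pathway, had medians of 9.89 CPM in BAT and 0.850 CPM in inguinal WAT of KI mice, and of 0.940 and 3.41 CPM in WT mice. It was thus on the BAT side in KI and on the inguinal side in WT mice, with an interaction of 4.82 ± 0.60 (adjusted p = 8.3e-06 in edgeR's test). Agt had medians of 0.299 and 15.6 CPM in KI and 0.723 and 2.03 CPM in WT mice (interaction −4.03 ± 0.51), and Hspb7 of 1.80 and 43.0 CPM in KI and 4.41 and 9.21 CPM in WT mice (−3.81 ± 0.67). For both, inguinal WAT of KI mice was the group with the highest median.

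The 13 mitochondrially encoded mRNAs had a median depot difference of 2.70 in KI and 1.33 in WT mice, and 5 of them were called in the interaction, all toward BAT in KI mice. These were mt-Nd1, mt-Nd2, mt-Nd5, mt-Nd6 and mt-Co1. Of the 13, 11 had an unadjusted p below 0.05 and 9 were called by DESeq2. In both depots the share of counts on mitochondrially encoded genes had a lower median in KI than in WT mice. It was 11.2 against 16.2% in BAT and 2.52 against 9.91% in inguinal WAT. Of the 76 nuclear respiratory subunits, 0 were called in the interaction by edgeR, 9 had an unadjusted p below 0.05 and 1 was called by DESeq2. Of the ISR genes, 6 were called toward BAT and 2 toward inguinal WAT in KI mice. Gadd45a had medians of 125 CPM in BAT and 67.0 CPM in inguinal WAT of KI mice and of 7.13 and 15.1 CPM in WT mice (interaction 2.08 ± 0.45). Atf3 had a depot difference of 3.34 in KI and −0.23 in WT mice (interaction 3.59). Fgf21 had medians of 20.8 and 2.26 CPM in KI and 1.17 and 1.27 CPM in WT mice (4.05 ± 0.94), a call that held in 6 of the 28 fits that left out 1 mouse, with 2.98 without BAT mouse 5 of the KI group. For Atf4, Atf5 and Ddit3 no interaction was called.

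Of the cholesterol genes, 4 were called in the interaction, all toward BAT in KI mice. Insig1 had medians of 119 CPM in BAT and 37.7 CPM in inguinal WAT of KI mice and of 159.6 and 155 CPM in WT mice (1.96 ± 0.40), and Hmgcs1 of 246 and 127 CPM in KI and 232 and 272 CPM in WT mice (1.00 ± 0.18). In both, inguinal WAT of KI mice was the group with the lowest median. Ckb had medians of 244 and 36.0 CPM in KI and 90.0 and 33.0 CPM in WT mice (1.32 ± 0.31), a call held in 10 of 28 fits without 1 mouse, and for Ucp3 the interaction was −1.24 ± 0.28, held in 17 of 28. Cpt1a, lower in BAT in both genotypes, differed by −0.98 in KI and −1.74 in WT mice (0.78 ± 0.14). Cacng5, Cck and Gm44026 were among the 5 genes with the largest interaction toward BAT. Each had its highest median in inguinal WAT of WT mice, from 1.08 CPM for Cck to 2.32 CPM for Gm44026, with medians of at most 0.278 CPM in the other groups, and Cacng5 had a median of 0 CPM in 3 groups. Leaving out 1 mouse moved the interaction of Cacng5 between 5.79, not called, and 10.18, and that of Gm44026 between 3.54, not called, and 5.93. Elane, Gm43413 and Gm47595 were among the 5 largest toward the inguinal side, each with a median of 0 CPM in 1 group. The size of the fitted interaction of these 6 genes depends on the prior count, and that of Gm43413 was −6.46 without BAT mouse 4 of the KI group. DESeq2 gave no adjusted p for Cacng5, Cck and Elane.

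**Figure D5:**
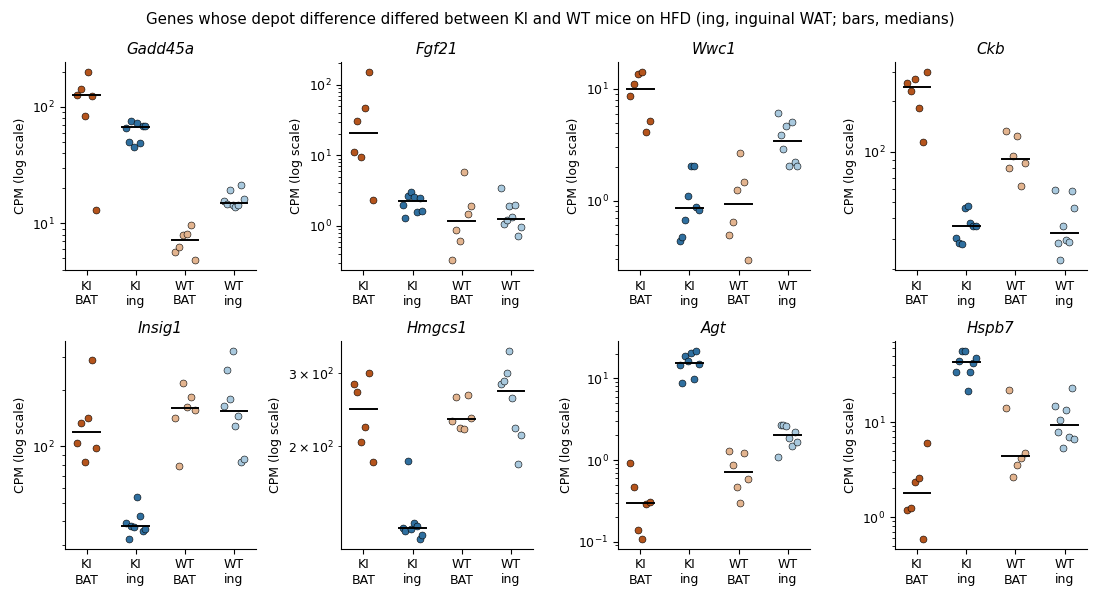
Level in CPM (log axis) of 8 genes called in the interaction, 1 point per mouse on HFD, for BAT and inguinal WAT of KI mice (dark) and WT mice (light), bars at the medians (n = 6 for BAT, n = 8 for inguinal WAT). Gadd45a and Fgf21 were highest in 5 of the 6 BAT samples of KI mice, Insig1 and Hmgcs1 had their lowest median in inguinal WAT of KI mice, and Agt and Hspb7 their highest there.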

How the data were processed

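Counts per gene were used as the authors deposited them, 1 column per mouse, in separate tables for BAT and inguinal WAT. Per the labels the molecule was polyA RNA, and per the study's methods libraries were sequenced as paired reads, trimmed with cutadapt, aligned to GRCm38 with STAR and counted with featureCounts; versions, annotation and strand setting are not given in the sources used here, so overlapping antisense genes may share counts. The tables were joined on gene symbol (52853 of 54838 entries kept). Genes were filtered with filterByExpr and tested in edgeR 4.0.16 (R 4.3.3) with TMM factors and the robust quasi-likelihood fit, depot as the only term and each mouse as 1 replicate. The interaction was fitted over the 4 HFD groups. The same test on simulated counts recovered 87% of 200 genes changed by 1.5 on the log2 scale for the KI depot comparison (15866 genes). Far more genes differed in the data, so this cannot check the scaling between depots. Members and gene lists were chosen with earlier results of these data known. Named genes were the depot markers and mitofusins, the 10 largest differences each way among called genes without overlap, with a mean of at least 10 CPM in the higher depot and no predicted-gene symbol, the extremes of each list, Hox, uncoupling and positional genes, the 5 largest interactions each way and 11 genes of the study; other list members named were chosen after their values were seen. Promoters were taken from RefSeq, the first listed per symbol. Alternatives covered scaling, filters, DESeq2 1.42.0, depth, diet, replicate block and left-out mice. Values measure the spread between mice, and depth limits genes near 3 counts per library.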

Additional observations from a re-analysis of the deposited data

Results flagged for a closer look

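In 20 of 207 groups of single genes, 12 of 66 of list sums and 1 of 6 of depth measures, 1 mouse lay far from the others by Dixon's criterion. It was applied within a depot, and for independent groups of normally distributed values it is met in about 1 in 20. CPM need not be normally distributed and the groups share mice, so the numbers flagged cannot be set against that rate. Genes with at most 3 counts in a depot were not examined. Inguinal mouse 2 stood apart at 256 CPM for Atp2a3, 34.4 CPM for Dpp4, 357 CPM for Ighm and 18.9 CPM for Mvk. Inguinal mouse 2 also stood apart at 1426 CPM for the sum of B cell markers, 723 CPM for the sum of T cell markers, 3418 CPM for the sum of integrated stress response genes, 1524 CPM for the sum of mitochondrial fusion and fission genes, 2479 CPM for the sum of paired respiratory chain isoforms and 3.68% for the mitochondrially encoded share. BAT mouse 5 stood apart at 609.7 CPM for Elovl3, 154 CPM for Fgf21, 0.442 CPM for Hoxd4, 293 CPM for Insig1 and 18.9 CPM for Sqle. BAT mouse 5 also stood apart at 1268 CPM for the sum of cholesterol synthesis genes and 46485 CPM for the sum of de novo lipogenesis genes. BAT mouse 6 stood apart at 378 CPM for Dio2 and 6.08 CPM for Hspb7. BAT mouse 6 also stood apart at 1239.7 CPM for the sum of skeletal muscle markers. BAT mouse 4 stood apart at 25.5 CPM for Hoxa7 and 11.6 CPM for Hoxc8. BAT mouse 4 also stood apart at 2689 CPM for the sum of adipogenic transcription factors and 472 CPM for the sum of nerve and Schwann cell markers. Inguinal mouse 3 stood apart at 18.7 CPM for Fabp3, 188 CPM for Hmgcs1, 2.40 CPM for Krt10 and 0.228 CPM for Zic1. Inguinal mouse 5 stood apart at 1.09 CPM for Gm47595 and 55.2 CPM for Insig1. Inguinal mouse 5 also stood apart at 2787 CPM for the sum of macrophage markers. Inguinal mouse 1 stood apart at 129.6 CPM for Sucla2. BAT mouse 3 stood apart at 3509 CPM for the sum of red blood cell markers.

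The depot difference differed between KI and WT mice in 485 genes by the interaction test (edgeR, adjusted p below 0.01). Toward BAT in KI mice, the log2 interaction was 7.21 for Cacng5, 4.82 for Wwc1, 4.37 for Cck, 4.12 for Gm44026, 4.05 for Fgf21, 3.51 for Elovl3, 2.08 for Gadd45a, 1.96 for Insig1, 1.32 for Ckb, 1.00 for Hmgcs1 and 0.78 for Cpt1a. Toward inguinal WAT it was −1.24 for Ucp3, −1.54 for Thbs2, −3.04 for Cacna1e, −3.64 for Gm47595, −3.81 for Hspb7, −4.03 for Agt, −4.35 for Gm43413 and −6.27 for Elane. These are the genes named by rule. For Cacng5, Cck, Gm44026, Elane, Gm43413 and Gm47595, whose levels were near 0 in at least 1 group, the size depends on the prior count. DESeq2 gave no adjusted p for Cacng5, Cck and Elane. Low levels in KI mice also make the size uncertain for Cacna1e, Agt and Elovl3. Their medians were 0.126 CPM for Cacna1e and 0.299 CPM for Agt in BAT, and 0.140 CPM for Elovl3 in inguinal WAT.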

How the results depend on the processing

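Counts of called genes in the KI and WT depot comparisons and the interaction stayed within 1.5 times their value except under the settings named here. With library size alone, 2256 genes were higher and 9114 lower in BAT, and 810 and 3242 by the rule of larger change, where the median of all genes moved to −0.72; with upper-quartile factors 39.5% of called genes were higher. At least 10 counts in every mouse left 1828 genes of larger change, 762 of them lower (58.3% higher), from fewer genes tested. Testing against a difference of 1.5 with glmTreat called 1342, 791 higher and 551 lower. With chow-fed inguinal WAT, an alternative chosen after seeing the data, 5023 genes were called, 2447 higher and 2576 lower, and 1445 by larger change, 662 higher and 783 lower; diet and table differ there too. The interaction called 844 genes in DESeq2, 480 toward BAT and 364 away, and 1280 at an adjusted p below 0.05, 676 and 604. The causes were not tested.

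Leaving out 1 mouse gave 8938 to 9558 called genes in KI mice (4288 to 4557 higher, 4597 to 5035 lower), 3013 to 3214 of larger change (1403 to 1512 and 1580 to 1719), 8713 to 9254 in WT mice (4070 to 4499 and 4422 to 5007), and 362 to 570 for the interaction (204 to 301 and 151 to 272). Without inguinal mice 2, 3 and 5 and BAT mouse 6, also chosen after seeing the data, 8518 were called. By the replicate numbers shared by mice 1 to 6, 1 of 6 correlations of deviations was over 0.1 and 2 of 6 mice were closest to their own number. Samples of the same mouse need not share deviations between depots, so this cannot tell whether the animals were the same. The replicate block on mice 1 to 6 called 7739 genes, 3723 higher and 4016 lower, against 8280 without it.

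Direction reversed for Mthfd2 with library size alone (−0.29) and, with chow-fed inguinal WAT, for Cspg4 (−0.81), Krt10 (−0.26), Ebf3 (0.049), Sqle (−0.13) and Mthfd2 (−0.0043). The interaction call of Elovl3 held in 6, of Gm44026 in 7 and of Thbs2 in 23 of 28 fits without 1 mouse.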

Other observations

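The interaction between depot and genotype also reached members of other lists, where 2.82% of all genes tested were called. Of the 32 brown thermogenic genes, 6 were called toward BAT in KI mice and 2 toward inguinal WAT. Kcnk3, a potassium channel, differed between depots by 4.87 in KI and 3.27 in WT mice (interaction 1.62), Otop1, a proton channel, by 6.14 and 4.67 (1.49), and Pank1, a pantothenate kinase, by 8.10 and 6.92 (1.21). Ffar4, a fatty acid receptor, had a smaller depot difference in KI than in WT mice, 1.39 against 3.01 (−1.61). Among lipid droplet genes, Clstn3 (interaction 2.24) and Plin2, a perilipin (1.47), were called toward BAT in KI mice. Among white fat genes, Nnat (−2.72) and Rbp4, the retinol carrier (−1.95), were called toward inguinal WAT. Chchd10, a protein of the mitochondrial intermembrane space, was higher in BAT by 3.71 in KI and 5.29 in WT mice (−1.56).

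By gene class, 59.8% of 13520 protein-coding genes were called in the KI depot comparison. Of 356 long intergenic RNAs, 64 were higher and 127 lower in BAT, of 934 antisense genes 173 and 349, and of 422 processed pseudogenes 122 and 61.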
